A study of Mus musculus with 42 samples.

Results

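DNA glycosylases open base excision repair, and 10 of their genes were followed through 42 RNA sequencing libraries of mice that differed in p53. The genes were Ung, Smug1, Tdg, Mbd4, Ogg1, Mutyh, Nthl1, Neil1, Neil3 and Mpg, 10 of the 49585 genes in the count table. They were chosen by the known function of their products, and all 10 were found in the table. The measured values that had a part in the choice were the levels of Ung in irradiated Het thymus against Null and AD thymus. Ung values that involve irradiated Het libraries are therefore a description with no test. Ung in irradiated AD and Null libraries was tested, but those levels were the other side of that choice. Such tests are not independent of it.

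Mice aged 4 weeks on a mixed BALB/C and C57BL6 background differed in their alleles of p53, the transcription factor encoded by Trp53. Het mice were p53 +/-, AD mice were p53 AD/-, RP mice were p53 RP/- and Null mice were p53-null, so that every Het, AD and RP mouse also carried a null allele. Irradiated thymus, collected 4 h after the exposure, was from 4 Het, 4 AD, 4 RP and 4 Null mice. Basal thymus, from other mice that were not irradiated, was from 3 Het, 3 AD and 2 Null mice. Basal intestine, pancreas and liver each came from 3 AD and 3 Null mice, the animals of the basal thymus libraries and Null-1087. No mouse with a full pair of wild-type alleles was analysed here. The comparisons ask how p53 genotype changes transcripts in stressed and in resting tissue. A name such as Het-631 gives the genotype and the number of the animal.

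Base excision repair removes single altered bases. A glycosylase recognises the base and cuts it from the sugar, and an endonuclease, a polymerase and a ligase then restore the strand. Ung and Smug1 remove uracil, Tdg and Mbd4 act on thymine or uracil mispaired with guanine, Ogg1, Mutyh, Nthl1, Neil1 and Neil3 deal with oxidised bases or their mispairs, and Mpg removes alkylated purines.

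Ung, Neil1 and Neil3 had the widest ranges over the thymus libraries, and the sequence just before each gene is shown for that reason. The letters are from RefSeq on GRCm38.p6, 5′ to 3′ on the strand of the gene, and capitals mark the GC box GGGCGG. The Ung stretch is chr5:114130185-114130385 on the plus strand, and ends at the last base before the annotated gene. The Neil1 stretch is chr9:57148306-57148555 and the Neil3 stretch is chr8:53639066-53639315, both on the minus strand.
Ung: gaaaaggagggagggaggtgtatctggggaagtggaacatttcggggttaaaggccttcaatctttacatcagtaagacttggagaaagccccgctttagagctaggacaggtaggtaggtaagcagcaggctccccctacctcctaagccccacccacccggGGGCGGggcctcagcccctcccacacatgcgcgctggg
Neil1: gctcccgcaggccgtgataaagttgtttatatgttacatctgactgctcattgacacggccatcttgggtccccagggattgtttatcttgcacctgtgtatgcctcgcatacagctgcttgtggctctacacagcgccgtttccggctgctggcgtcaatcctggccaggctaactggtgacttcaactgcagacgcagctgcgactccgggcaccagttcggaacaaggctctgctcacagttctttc
Neil3: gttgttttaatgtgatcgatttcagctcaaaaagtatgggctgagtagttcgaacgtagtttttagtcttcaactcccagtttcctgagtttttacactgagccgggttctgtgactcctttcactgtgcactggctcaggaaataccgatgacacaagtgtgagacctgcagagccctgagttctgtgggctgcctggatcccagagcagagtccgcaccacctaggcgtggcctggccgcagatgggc
For all 10 genes, 6 motifs were searched on both strands over the 250 bases before the RefSeq start. GGGCGG was in the windows of 6 of the 10 genes (Ung, Mbd4, Ogg1, Mutyh, Nthl1 and Mpg) and in 32.7% of 32851 mouse promoter windows of that length. CCAAT was in 7 (Smug1, Tdg, Mbd4, Ogg1, Mutyh, Nthl1 and Mpg), against 33.8% of all windows. The E-box CACGTG was in the window of Tdg, against 6.02%, and the E2F motif TTTCGCGC was in that of Nthl1, against 0.256%. Neither TTTGAA, held by 16% of windows, nor the single-repeat p53 consensus element, held by 7.13%, had a match in any of the 10. The Neil1 and Neil3 windows held none of the 6 motifs. A match is a description of letters and not a binding site, and no match speaks only for this window.

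Total counts per library were 26398761 to 33331829 in thymus, 24340398 to 34772519 in intestine, 19861977 to 24815911 in pancreas and 26000528 to 32487187 in liver. Levels are CPM, counts scaled to a common library size after TMM normalization, with 1 scaling for all 42 libraries. Trp53 averaged 21.5 CPM in Het, 23.9 in AD, 23 in RP and 13.4 in Null irradiated thymus, so transcript was present in Null and genotypes were read from the labels. The 10 thymocyte markers summed to 4960 to 7916 CPM in thymus and at most 49.7 CPM in the other tissues, and 6 hepatocyte markers summed to 166200 CPM or more in liver. The 6 acinar markers of the pancreas also reached 547 to 80330 CPM in the intestine libraries. AD-727 had 166 CPM of the hepatocyte markers in irradiated thymus, RP-653 had 38.7 and RP-656 had 21.3, while the highest of the other thymus libraries had 5.64. Library Het-631 stood apart within irradiated Het thymus. Its 20 cell cycle genes summed to 4530 CPM, with 3002 to 3322 CPM in the other 3 libraries. Its 7 macrophage markers summed to 178 CPM, with 304 to 368 CPM in the others. The 10 glycosylases summed to 300 CPM there and to 181 to 214 CPM in the other 3. Glycosylase results that use irradiated Het thymus were therefore also computed without it, and are given both ways where the call or the value changed. Since Het-631 was set apart partly for its glycosylase levels, p-values without it show its weight and are no added support. The other gene lists were read with it included. The p-values set each difference against the spread between these few libraries, estimated with information shared across genes. Between tissues, the main fit treated libraries of the same mouse as independent. In bulk tissue, fewer cells of a type and less RNA per cell cannot be told apart.

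Per length of exon, Neil1 had the highest level of the 10 genes in most groups. Values here are CPM per kilobase of exon (RPKM), a scale that takes length into account when genes are compared with one another. The length was that of all annotated exons of a gene, 1871 bases for Neil1 and 5555 for Neil3. The transcripts present may be shorter, so the order of genes depends on this choice. In CPM, basal thymus of AD and Null mice averaged 48.3 for Neil3, 35.1 for Mbd4 and 23.1 for Neil1. Neil1, a bifunctional glycosylase for oxidised pyrimidines, had group means of 9.94 to 25.9 RPKM in thymus and of 3.09 to 5.62 RPKM in the other tissues. Neil3, which acts on oxidised bases in single-stranded DNA, had group means of 8.02 to 13.8 RPKM in thymus, and Mbd4 had 6.28 to 7.41 RPKM. At the other end, Ung had 0.378 RPKM in irradiated Het thymus, and Mutyh, which removes adenine opposite oxidised guanine, had 0.161 RPKM in AD pancreas and 0.193 RPKM in Null pancreas. On the CPM scale the ratio of the highest to the lowest of 13 group means was 32.3 for Neil3, 28.2 for Mutyh, 11.04 for Mbd4, 8.39 for Neil1 and 6.08 for Ung. It was 4.601 for Nthl1, 2.82 for Mpg, 2.75 for Tdg, 1.94 for Smug1 and 1.73 for Ogg1. Within the 24 thymus libraries Ung, Neil1 and Neil3 had log2 ranges of 3.21, 1.99 and 1.57, and the other 7 genes had ranges under 1. The Neil3 range was widened by Het-631, at 121 CPM. The other thymus libraries had 40.6 to 80.3 CPM of Neil3.

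**Figure D1:**
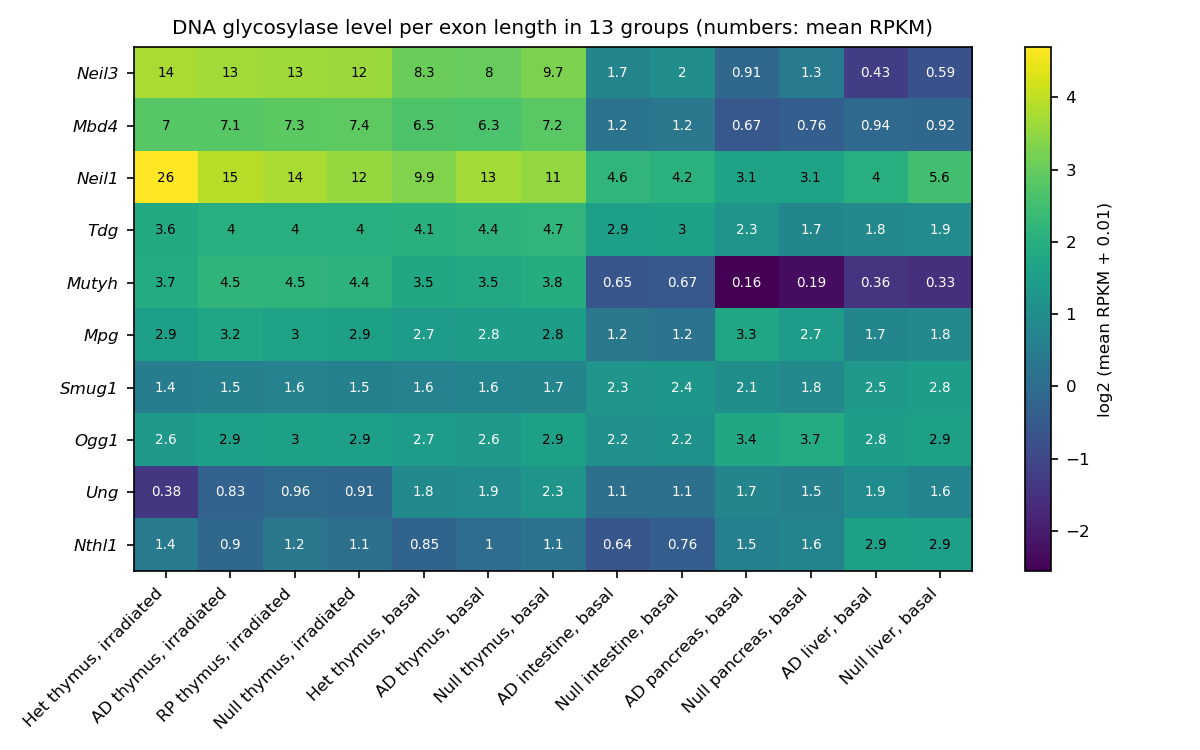
Mean level of each glycosylase per exon length in the 13 groups, with colour giving log2 (mean RPKM + 0.01) and the printed number giving the mean RPKM. Neil3, Mbd4, Neil1 and Mutyh are brightest in the thymus groups, and within the Ung row the darkest cell is irradiated Het thymus (0.38 RPKM).

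In irradiated thymus, the uracil glycosylase gene Ung was lowest and Neil1 highest in mice with a wild-type p53 allele, and most other glycosylases passed no test between genotypes. Ung (chr5:114130386-114139323 on GRCm38, as for the positions below) encodes the main uracil DNA glycosylase of nucleus and mitochondria. It stood at 2.29, 2.05, 2.42 and 1.53 CPM in Het-594, Het-595, Het-603 and Het-631. AD libraries had 5.51, 3.53, 5.17 and 3.84 CPM, RP libraries had 5.26, 6.18, 4.54 and 4.95 CPM, and Null libraries had 4.47, 6.47, 4.803 and 4.24 CPM. All 4 Het libraries lay below each of the other 12, and the AD, RP and Null ranges overlapped. As a description, the log2 fold change was -1.29 ± 0.19 for Het over Null, 1.14 ± 0.19 for AD over Het and 1.33 ± 0.19 for RP over Het, where ± is the standard error of the log2 fold change here and below. Without Het-631 these values were -1.17, 1.02 and 1.22. Against Null, Ung differed by -0.15 ± 0.18 in AD (adjusted p 0.895) and by 0.04 ± 0.18 in RP (adjusted p 0.998, edgeR quasi-likelihood test with Benjamini-Hochberg adjustment over all genes tested, as for each edgeR p below). The AD and Null levels of Ung here had a part in the choice of members, so these p-values are not independent of that choice.

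Smug1 (chr15:103153290-103167092), the second uracil glycosylase, had 8.33 to 9.17 CPM in Het, 8.62 to 10.2 in AD, 9.4 to 10.1 in RP and 8.39 to 10.8 in Null irradiated thymus. The Het and Null libraries overlapped, and Het over Null was -0.14 ± 0.09 (edgeR adjusted p 0.326).

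Tdg and Mbd4, which remove thymine or uracil opposite guanine, showed small differences. Tdg (chr10:82629828-82650799) had 18.7 to 20.6 CPM in Het, 20.3 to 21.9 in AD, 20.99 to 23.2 in RP and 20.2 to 22.8 in Null irradiated thymus. Het over Null was -0.16 ± 0.07, which did not pass the test (edgeR adjusted p 0.115). Mbd4 (chr6:115840697-115853371) had 35.4, 37, 30.6 and 44.5 CPM in Het-594, Het-595, Het-603 and Het-631 and 38.03 to 41.2 CPM in Null, a difference of -0.11 ± 0.09 (edgeR adjusted p 0.472). Het-631 was the highest of the 4 Het values, and without it Het over Null was -0.21 ± 0.08 (edgeR adjusted p 0.0479). Exons of Tdg overlap those of Glt8d2 on the opposite strand over 6.83% of their length, and exons of Mbd4 overlap those of Gm44206 over 5%. The strand setting of the counting is not given in the sources used here, so reads of such pairs could not be told apart. The processed pseudogene Tdg-ps held 0 to 16 counts in each library.

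Among the glycosylases of oxidised bases, Neil1 (chr9:57142800-57148305) rose in Het thymus. The libraries Het-594, Het-595, Het-603 and Het-631 had 39.6, 48.1, 34.7 and 71.4 CPM. AD libraries had 26.5, 28.2, 28.8 and 29.6 CPM, RP libraries had 26.3, 23.6, 28.8 and 24.01 CPM, and Null libraries had 22.9, 20.7, 23.2 and 21.2 CPM. Each Het library lay above all 12 others, and Het-631 was the highest of all. The log2 fold change for Het over Null was 1.12 ± 0.16, or 2.18-fold (edgeR adjusted p 0.000103). For AD over Het it was -0.76 ± 0.16 (edgeR adjusted p 0.00355), and for RP over Het it was -0.92 ± 0.16 (edgeR adjusted p 0.000657). Without Het-631 the values were 0.87 ± 0.09, -0.51 ± 0.09 and -0.67 ± 0.09, with edgeR adjusted p of 1.16e-06, 0.000558 and 2.97e-05. The 4 AD libraries also lay above the 4 Null libraries, with a difference of 0.36 ± 0.16 that did not pass the test (edgeR adjusted p 0.588), and RP over Null was 0.20 ± 0.16 (edgeR adjusted p 0.998).

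For Neil3 (chr8:53586867-53639065) the sign of Het over Null turned on a single library. It had 58.6, 70.99, 55.5 and 121 CPM in Het-594, Het-595, Het-603 and Het-631, and 55.2 to 77.3 CPM in Null. The difference of Het over Null was 0.15 ± 0.19 with all libraries (edgeR adjusted p 0.6599) and -0.17 ± 0.11 without Het-631 (edgeR adjusted p 0.289). The AD range of 65.3 to 80.3 CPM and the RP range of 65.5 to 77.2 CPM overlapped that of Null.

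Nthl1 (chr17:24632680-24638837), the mammalian endonuclease III for oxidised pyrimidines, separated AD from Het. AD libraries had 2.05, 2.6, 2.72 and 2.41 CPM, against 4.02, 3.801, 3.42 and 3.54 CPM in Het. No AD library reached the lowest Het library, and the log2 fold change was -0.58 ± 0.14 (edgeR adjusted p 0.00878, and 0.00748 without Het-631). RP libraries had 2.92 to 3.72 CPM and Null libraries 2.54 to 3.55 CPM. Het over Null was 0.33 ± 0.14 (edgeR adjusted p 0.112), and without Null-604 it was 0.44 ± 0.14 (edgeR adjusted p 0.0334). AD and RP libraries did not overlap, but AD over RP was -0.45 ± 0.14 with an edgeR adjusted p of 0.626.

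Mutyh (chr4:116807723-116819440) had 9.12, 8.88, 8.495 and 12.3 CPM in Het-594, Het-595, Het-603 and Het-631. The ranges were 11.3 to 12.6 CPM in AD, 10.9 to 12.3 CPM in RP and 10.8 to 11.9 CPM in Null. Of the Het libraries, Het-631 alone lay within the range of the other genotypes. Het over Null was -0.26 ± 0.10 with all libraries (edgeR adjusted p 0.0895) and -0.40 ± 0.08 without Het-631 (edgeR adjusted p 0.00114). AD over Het was 0.30 ± 0.10 with all libraries (edgeR adjusted p 0.0569) and 0.44 ± 0.08 without it (edgeR adjusted p 0.000543). RP over Het was 0.27 ± 0.10 with all libraries (edgeR adjusted p 0.0782) and 0.41 ± 0.08 without it (edgeR adjusted p 0.000952). With all libraries DESeq2 called Mutyh for AD over Het (adjusted p 0.0283) and for RP over Het (adjusted p 0.0411).

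Ogg1 (chr6:113326972-113335068), which removes oxidised guanine, and Mpg (chr11:32226505-32232700), the alkyladenine glycosylase, passed no test between genotypes in irradiated thymus. Ogg1 had 5.05 to 6.16 CPM in Het, 5.84 to 7.06 in AD, 5.69 to 7.14 in RP and 5.82 to 6.79 in Null. Mpg had 10.1 to 12 CPM in Het, 10.7 to 14.3 in AD, 10.7 to 12.6 in RP and 9.06 to 14.5 in Null. Ogg1 shares 10.6% of its exon length with Camk1 on the opposite strand, and Mpg shares 35.7% with Nprl3, so their levels may include reads of those genes.

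**Figure D2:**
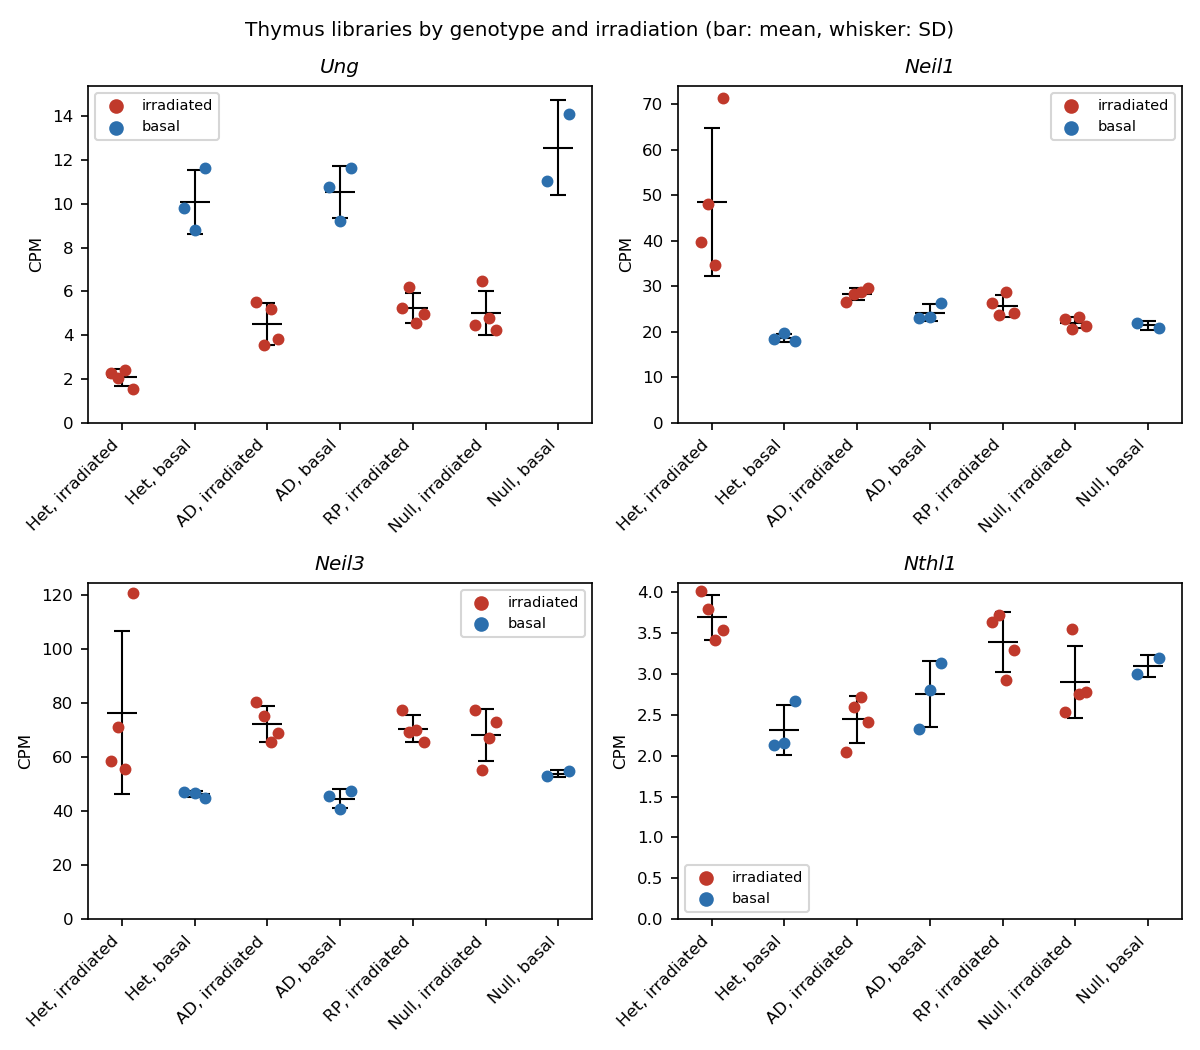
CPM of Ung, Neil1, Neil3 and Nthl1 in each thymus library (points), with the mean (bar) and SD (whisker) of each group of 2 to 4 mice, irradiated in red and basal in blue. Ung lies at 1.53 to 2.42 CPM in irradiated Het thymus and at 8.798 CPM or more in every basal library, and Het-631 is the highest point for Neil1 and Neil3.

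Ung is left out of counts of calls where irradiated Het libraries are involved. Of the other 9 genes, 1 was called at an adjusted p under 0.05 for Het over Null (Neil1, higher), where 19.2% of all genes tested were called, 9.79% higher and 9.38% lower. It was 2 of 9 for AD over Het (Neil1 and Nthl1, lower), against 14% of all genes (5.69% higher, 8.27% lower), and 1 of 9 for RP over Het (Neil1, lower), against 18.7% (8.53% higher, 10.2% lower). Of all 10 genes, 0 were called for AD over Null, RP over Null and AD over RP, where 0.027%, 0.0315% and 0% of all genes were called. Ung is counted in these, though its AD and Null levels had a part in the choice of members. In those 3 comparisons edgeR called 6, 7 and 0 of 22206 genes, 1774, 1151 and 1525 had an unadjusted p under 0.05, and DESeq2 called 82, 30 and 14. Comparisons with Null share the Null libraries and those with Het share the Het libraries. The median over the 9 genes was -0.11 for Het over Null, against -0.01 for all genes tested. Without Het-631, 3 of the 9 were called for Het over Null, with Mbd4 and Mutyh lower beside Neil1, which was higher. For AD over Het it was then 3 of the 9 and for RP over Het 2 of the 9, with Mutyh higher in both. Without Null-604 it was 2 of 9 for Het over Null, with Nthl1 higher (edgeR adjusted p 0.0334). With single libraries left out, all-gene calls were 3340 to 5213 for Het over Null, 2189 to 4665 for AD over Het and 2907 to 4775 for RP over Het. With all libraries they were 4257, 3099 and 4163. The background moved too, so these counts are a description.

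Thymic epithelium markers summed higher in irradiated Het thymus than in every other irradiated library, while macrophage and cell cycle sums overlapped between genotypes. For Het over Null, 9.79% of all genes tested were higher and 9.38% lower. Of 7 thymic epithelium markers 3 were higher in Het than in Null (Krt8 by 0.91, Prss16 by 0.59 and Psmb11 by 0.43 on the log2 scale), and the list summed to 751 to 915 CPM in Het, 468 to 556 in AD, 518 to 590 in RP and 481 to 539.9 in Null. Of 7 macrophage markers 2 were higher (Mertk by 0.46 and Cd68 by 0.43), with sums of 178 to 368 CPM in Het, 196 to 230.3 in AD, 217 to 237 in RP and 194 to 258 in Null. Het-631, at 178 CPM, lay below every AD, RP and Null library. Of 20 cell cycle genes 12 were lower, with sums of 3002 to 4530 CPM in Het, 3698 to 4194 in AD, 4204 to 4738 in RP and 4075 to 4534 in Null. No gene of these 3 lists was at 0 in all libraries of a thymus group, and their part in the glycosylase differences was not tested.

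Between irradiated and basal thymus, Ung fell in AD and in Null mice and stood lower in Het mice, and Neil1 rose in Het. Irradiated and basal thymus came from different mice, and any difference in handling between them cannot be told apart from irradiation. The dose is not given in the sources used here, and no basal RP library was analysed here. Ung had 5.51, 3.53, 5.17 and 3.84 CPM in irradiated AD thymus, against 10.8, 9.24 and 11.6 CPM in basal AD thymus. Irradiated Null thymus had 4.24 to 6.47 CPM, against 11.1 and 14.1 CPM in basal Null thymus. Irradiated Het thymus had 1.53 to 2.42 CPM, against 9.82, 8.798 and 11.7 CPM in basal Het-697, Het-703 and Het-855. In none of the 3 genotypes did the irradiated and basal libraries overlap. The log2 fold change was -1.22 ± 0.17 in AD (edgeR adjusted p 0.000338) and -1.30 ± 0.19 in Null (edgeR adjusted p 0.00397). The irradiated AD and Null levels of Ung had a part in the choice of members, so these p-values are not independent of that choice. The Null call rested on few libraries: without Null-923 the value was -1.14 ± 0.24 with an edgeR adjusted p of 0.394, and with only the 2 Null groups fitted it was -1.30 with an adjusted p of 0.154. In Het the value was -2.30 ± 0.18, or 0.203 of the basal level, given as a description, and -2.19 without Het-631.

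Neil1 had 34.7 to 71.4 CPM in irradiated Het thymus, against 18.3, 19.6 and 17.9 CPM in basal Het-697, Het-703 and Het-855, with no overlap. It rose by 1.36 ± 0.16 (edgeR adjusted p 1.65e-06), and by 1.11 ± 0.10 without Het-631 (edgeR adjusted p 2.43e-09). In AD thymus Neil1 had 26.5 to 29.6 CPM after irradiation, against 22.99 to 26.3 CPM in basal thymus, a change of 0.23 ± 0.15 (edgeR adjusted p 0.551). In Null thymus it had 20.7 to 23.2 CPM, against 21.99 and 20.7 CPM, a change of 0.07 ± 0.17 (edgeR adjusted p 0.9699).

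Neil3 was higher in the irradiated than in the basal libraries of each genotype, but in the main fit it was called in Het alone. The libraries did not overlap, though in Null the gap was only 55.2 against 54.7 CPM, with 2 basal libraries. The share of all genes without overlap was not counted, so this separation is a description. Irradiated libraries had 55.5 to 121 CPM in Het, 65.3 to 80.3 CPM in AD and 55.2 to 77.3 CPM in Null. Basal libraries had 44.9 to 46.8 CPM in Het, 40.6 to 47.4 CPM in AD and 52.95 and 54.7 CPM in Null. It rose by 0.71 ± 0.19 in Het (edgeR adjusted p 0.0111) and by 0.40 ± 0.10 without Het-631 (edgeR adjusted p 0.00709). With only the 2 Het groups fitted it was not called (edgeR adjusted p 0.163). In AD the difference was 0.71 ± 0.19 and in Null 0.37 ± 0.21, with edgeR adjusted p of 0.114 and 0.748. The AD difference was called by DESeq2 (adjusted p 0.00669) and by edgeR with only the 2 AD groups (adjusted p 0.000333).

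Nthl1 had 3.42 to 4.02 CPM in irradiated Het thymus, against 2.13, 2.15 and 2.67 CPM in basal Het-697, Het-703 and Het-855, with no overlap. It rose by 0.65 ± 0.15 (edgeR adjusted p 0.00324) and by 0.67 ± 0.16 without Het-631 (edgeR adjusted p 0.00395). The difference was -0.16 ± 0.15 in AD and -0.07 ± 0.17 in Null (edgeR adjusted p 0.685 and 0.9697). Of the other 6 genes, Tdg had a difference of -0.19 ± 0.07 in Het (edgeR adjusted p 0.0628), which was called without Het-631 (-0.22 ± 0.07, edgeR adjusted p 0.0361), by DESeq2 and with Xist as a covariate. Mutyh differed by 0.36 ± 0.10 in AD (edgeR adjusted p 0.142, DESeq2 adjusted p 0.0395) and by 0.08 ± 0.10 in Het (edgeR adjusted p 0.672).

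**Figure D3:**
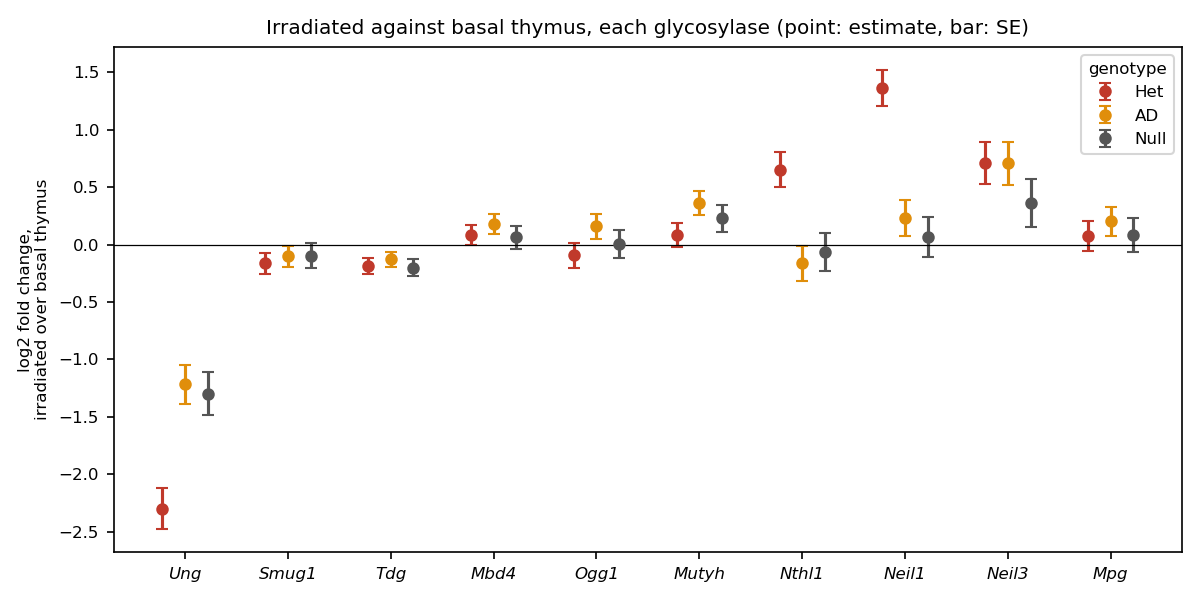
Log2 fold change of irradiated over basal thymus for each glycosylase in Het, AD and Null mice (points) with the standard error (bars), from 1 fit of 24 thymus libraries. Ung lies below -1 in all 3 genotypes, and Neil1 and Nthl1 lie above 0.6 in Het and below it in AD and Null.

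Of the 9 genes other than Ung, 3 were called between irradiated and basal thymus in Het (Neil1, Neil3 and Nthl1, higher), against 16.8% of all genes tested, 8.74% higher and 8.09% lower. In AD and in Null it was 1 of 10 (Ung lower), against 0.546% and 0.131% of all genes. Since Ung levels in irradiated AD and Null thymus had a part in the choice of members, these 2 counts are a description. The count in Null was 0 without Null-923 and with only the 2 groups fitted, and in AD it was 2 with only the 2 groups. In Het, 2 of 7 thymic epithelium markers and 2 of 7 macrophage markers were higher in irradiated thymus, and 1 of 20 cell cycle genes was higher and 9 lower. Basal Het thymus had sums of 579 to 637 CPM for the epithelium list, 225 to 256 CPM for the macrophage list and 3910 to 4137 CPM for the cell cycle list, and their part was not tested.

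The difference in response between genotypes was tested directly as an interaction. The Neil1 response was larger in Het than in Null by 1.30 ± 0.23 (edgeR adjusted p 0.001202), and by 1.05 ± 0.14 without Het-631 (edgeR adjusted p 9.9e-06). The Ung response differed by -0.999 ± 0.27, given as a description, with a range of -1.16 to -0.84 when single libraries were left out. For Nthl1 the difference was 0.72 ± 0.22 (edgeR adjusted p 0.0805), which DESeq2 called (adjusted p 0.0343) and edgeR called without Null-604 (adjusted p 0.02703) but not without Het-631 (adjusted p 0.0588). For Neil3 it was 0.35 ± 0.28, and 0.03 ± 0.15 without Het-631 (edgeR adjusted p 0.626 and 0.936). This interaction called 1 of the 9 genes other than Ung (Neil1, higher) and 3.44% of all genes, 2.37% higher and 1.07% lower. The AD response against the Null response called 0 of the 10, with Ung counted though not independent of the choice of members, and 0% of all genes. There edgeR called 0 of 23605 genes, 972 had an unadjusted p under 0.05, and DESeq2 called 2. The 10 AD differences ranged from -0.10 to 0.34, and the Het against AD response was not tested.

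Without irradiation, no glycosylase passed the test between genotypes in any tissue. In basal thymus Neil1 had 22.99, 23.3 and 26.3 CPM in AD, against 18.3, 19.6 and 17.9 CPM in Het. Those libraries did not overlap, and the difference of 0.37 ± 0.08 had an edgeR adjusted p of 0.999. Neil3 had 40.6 to 47.4 CPM in AD and 44.9 to 46.8 CPM in Het, against 52.95 and 54.7 CPM in Null. Both groups lay below Null, with differences of -0.26 ± 0.08 in AD (edgeR adjusted p 0.354) and -0.19 ± 0.08 in Het (edgeR adjusted p 0.579). Neil3 was not alone in this: against Null, the 10 differences ranged from -0.39 to -0.02 in Het and from -0.26 to 0.19 in AD. Their medians were -0.14 and -0.12, against 1.45e-05 and -0.00287 for all genes. Of the 10 genes, 7 in Het and 4 in AD did not overlap the 2 Null libraries, and the share of all genes was not counted. The background of calls was 0.0676% for Het over Null, 0.0676% for AD over Null and 0% for AD over Het. In these 3 comparisons edgeR called 15, 15 and 0 of 22173 genes, 1591, 1704 and 775 had an unadjusted p under 0.05, and DESeq2 called 107, 168 and 12. The 6 adipocyte markers summed to 236 to 301 CPM in AD and 113 to 319 CPM in Het, against 88.6 to 89.98 CPM in Null. None of the 6 was called, and their part in these values was not tested.

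In AD against Null intestine, the 10 differences ranged from -0.30 to 0.13, in pancreas those of the 9 genes tested from -0.56 to 0.40, and in liver from -0.43 to 0.30. None was called, and the background was 0.015%, 0.0548% and 0.267%. The edgeR calls were 3, 8 and 42 genes, those at an unadjusted p under 0.05 were 1219, 1181 and 1489, and DESeq2 called 101, 51 and 201. In pancreas Neil3 had 5.35, 4.14 and 5.69 CPM in AD-700, AD-701 and AD-702, against 9.23, 5.42 and 7.36 CPM in Null-859, Null-923 and Null-1087, a difference of -0.56 ± 0.29 (edgeR adjusted p 0.665). In liver Neil1 had 7.61, 6.95 and 7.94 CPM in the same AD mice, against 12.2, 9.9 and 9.44 CPM in the Null mice. The liver libraries did not overlap, and the difference was -0.43 ± 0.20 (edgeR adjusted p 0.542). Mutyh did not pass the filter on low counts in pancreas, with raw counts of 0, 4 and 7 in the AD mice and of 8, 1 and 3 in the Null mice.

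Basal tissues of AD and Null mice differed in which glycosylases they expressed, and thymus had the highest levels of Neil3, Mbd4, Mutyh, Neil1 and Tdg. Fold changes between tissues are averaged over both genotypes. The scaling matters here, since TMM factors were 1.38 to 1.53 in thymus, 0.937 to 1.05 in intestine, 0.346 to 0.409 in pancreas and 0.554 to 0.62 in liver. Each direction was therefore also read from library totals without TMM, an alternative chosen after seeing the data. Under it the median of all genes was 0.63 for thymus over intestine, 2.22 for thymus over pancreas and 1.75 for thymus over liver, in place of 0.14, 0.22 and 0.53 under TMM. For these 5 genes thymus exceeded each other tissue with a call under TMM, under RLE and under library totals.

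Neil3 averaged 48.3 ± 5.69 CPM in thymus (SD, n = 5), 10.2 ± 1.97 in intestine, 6.199 ± 1.81 in pancreas and 2.82 ± 1.53 in liver (SD, n = 6 each). The log2 fold change of thymus was 2.30 ± 0.19 over intestine, 2.92 ± 0.21 over pancreas and 4.17 ± 0.21 over liver, with edgeR adjusted p of 1.46e-10, 1.42e-11 and 2.14e-14. Intestine exceeded pancreas by 0.62 ± 0.20 and pancreas exceeded liver by 1.25 ± 0.23 (edgeR adjusted p 0.0104 and 3.87e-05), though with library totals pancreas over liver was 0.47 and not called. Null-859 had the highest Neil3 level of the 6 liver libraries, with 5.79 CPM, while the others had 1.74 to 3.101 CPM.

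Mbd4 averaged 35.1 ± 2.83 CPM in thymus (SD, n = 5), 6.34 ± 0.53 in intestine, 3.77 ± 1.07 in pancreas and 4.904 ± 0.83 in liver (SD, n = 6 each). Thymus was higher by 2.52 ± 0.14 over intestine, 3.15 ± 0.15 over pancreas and 2.90 ± 0.14 over liver (edgeR adjusted p 1.67e-14, 2.88e-15 and 1.67e-15), and pancreas over liver was -0.26 ± 0.16 (edgeR adjusted p 0.163). Without Null-923 pancreas that value was -0.38 and called (edgeR adjusted p 0.0456), and with library totals it was -1.04 and called (edgeR adjusted p 2.59e-06).

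Mutyh averaged 9.53 ± 0.74 CPM in thymus (SD, n = 5), 1.72 ± 0.41 in intestine, 0.461 ± 0.38 in pancreas and 0.893 ± 0.43 in liver (SD, n = 6 each). Thymus was higher by 2.50 ± 0.30 over intestine, 4.24 ± 0.40 over pancreas and 3.46 ± 0.33 over liver (edgeR adjusted p 4.7e-08, 8.85e-10 and 8.8e-10). The low counts limit the pancreas and liver values, since AD-700 had 0 counts in pancreas and 3 in liver.

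Neil1 averaged 23.1 ± 2.08 CPM in thymus (SD, n = 5), 8.31 ± 0.77 in intestine, 5.83 ± 0.85 in pancreas and 9.003 ± 1.92 in liver (SD, n = 6 each). Thymus was higher by 1.49 ± 0.11 over intestine, 1.88 ± 0.12 over pancreas and 1.40 ± 0.11 over liver (edgeR adjusted p 1e-11, 7.57e-13 and 3.63e-11). Its intestine and liver levels overlapped and differed by -0.09 ± 0.11 (edgeR adjusted p 0.481), while library totals gave 0.67 with a call. Tdg averaged 24.2 ± 1.34 CPM in thymus (SD, n = 5), 15.8 ± 1.25 in intestine, 10.7 ± 1.80 in pancreas and 9.98 ± 2.51 in liver (SD, n = 6 each). Thymus was higher for Tdg by 0.65 ± 0.12 over intestine, 1.12 ± 0.13 over pancreas and 1.32 ± 0.13 over liver (edgeR adjusted p 4.75e-05, 4.84e-08 and 1.02e-09). Pancreas and liver overlapped for Tdg, with a difference of 0.20 ± 0.13 (edgeR adjusted p 0.185) that was -0.58 and called with library totals, and 0.38 and called without Null-1087 liver (edgeR adjusted p 0.00253).

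Nthl1 was highest in liver on the TMM scale. It had 2.32 to 3.196 CPM in thymus, 1.596 to 2.28 CPM in intestine, 3.35 to 5.001 CPM in pancreas and 7.51 to 8.44 CPM in liver, and no tissue overlapped another. Intestine over liver was -2.06 ± 0.15 and pancreas over liver was -0.78 ± 0.15 (edgeR adjusted p 6.19e-12 and 8.28e-05), and both kept their sign and call with library totals. Thymus over liver was -1.40 ± 0.15 (edgeR adjusted p 1.02e-08), which became -0.15 and lost its call with library totals, and thymus over pancreas was -0.62 ± 0.16 (edgeR adjusted p 0.00143), which turned to 1.42.

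Several directions of the other 4 genes depended on the scaling. Ung averaged 11.4 ± 1.77 CPM in thymus (SD, n = 5), 5.92 ± 0.27 in intestine, 8.71 ± 1.91 in pancreas and 9.79 ± 3.27 in liver (SD, n = 6 each). Thymus over intestine was 0.99 ± 0.18 for Ung (edgeR adjusted p 2.01e-05) and 1.48 with library totals, called in both. Intestine over pancreas was -0.67 ± 0.18 for Ung (edgeR adjusted p 0.00234), against 0.88 with library totals. Smug1 averaged 10.2 ± 0.45 CPM in thymus (SD, n = 5), 14.6 ± 0.32 in intestine, 11.9 ± 2.85 in pancreas and 16.3 ± 2.10 in liver (SD, n = 6 each), and thymus over liver was -0.63 ± 0.13 for it under TMM (edgeR adjusted p 8.45e-05) but 0.63 with library totals. For Smug1 thymus over intestine was -0.48 ± 0.13 under TMM (edgeR adjusted p 0.00125) and 0.00979 with library totals (edgeR adjusted p 0.945). Ogg1 averaged 5.98 ± 0.53 CPM in thymus (SD, n = 5), 4.78 ± 0.39 in intestine, 7.77 ± 0.85 in pancreas and 6.23 ± 1.40 in liver (SD, n = 6 each). Intestine over pancreas was -0.81 ± 0.15 for Ogg1 under TMM (edgeR adjusted p 5.46e-05) and 0.74 with library totals. Its thymus over intestine call (0.37 ± 0.15, edgeR adjusted p 0.0308) was lost under RLE (adjusted p 0.0617) and without AD-702, Null-859 or Null-1087 intestine or AD-700, Null-859 or Null-923 thymus, but not with library totals. Mpg averaged 10.6 ± 0.69 CPM in thymus (SD, n = 5), 4.47 ± 0.31 in intestine, 11.1 ± 2.10 in pancreas and 6.55 ± 0.95 in liver (SD, n = 6 each). Thymus over intestine was 1.28 ± 0.13 for Mpg and 1.77 with library totals, while thymus over pancreas was -0.15 ± 0.14 and not called (edgeR adjusted p 0.344), against 1.89 with library totals.

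**Figure D4:**
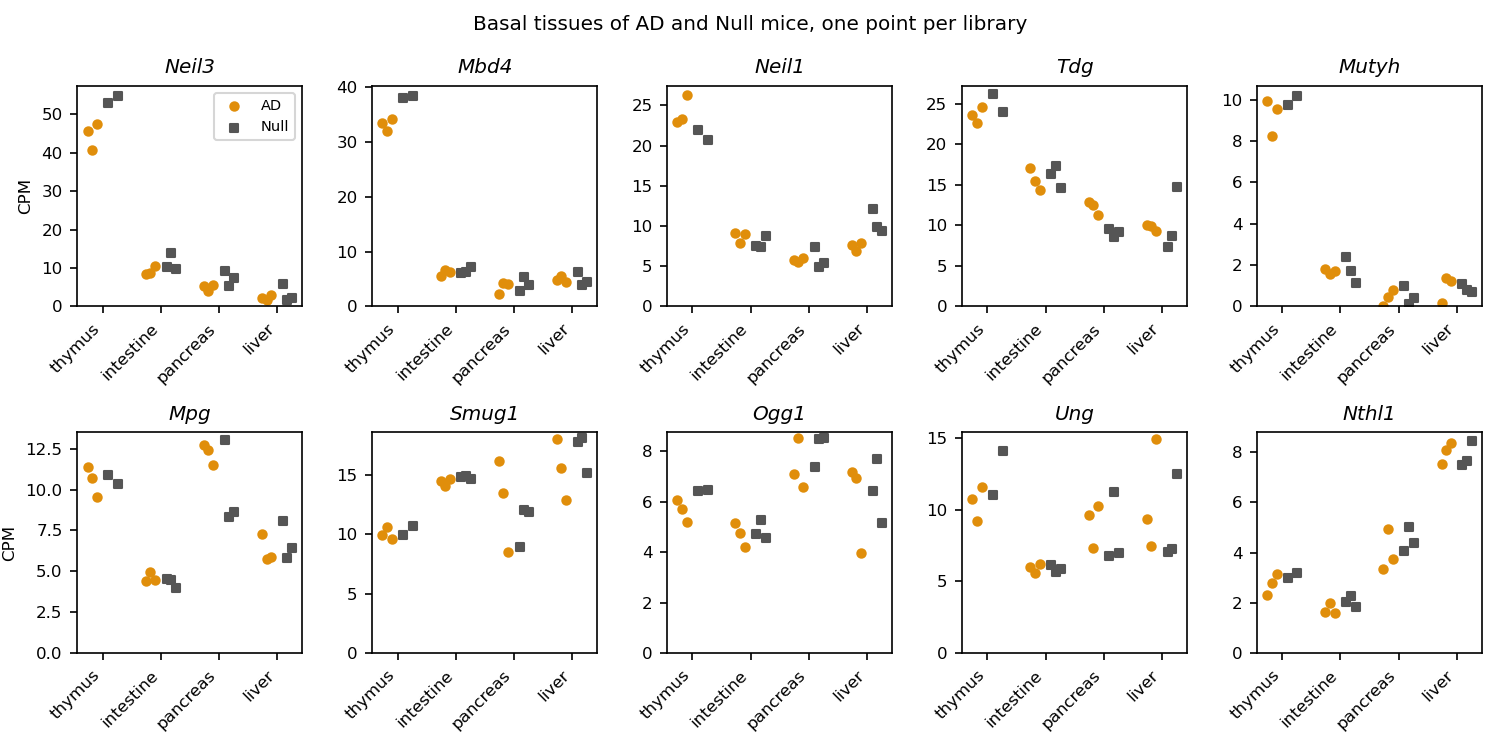
CPM of each glycosylase in basal thymus, intestine, pancreas and liver, with a point for each library of AD (orange circles) and Null (grey squares) mice. Thymus lies above the other tissues for Neil3, Mbd4, Neil1, Tdg and Mutyh, a direction kept under library totals, and liver lies above them for Nthl1 on the TMM scale plotted here, where the call against thymus was lost under library totals.

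Between tissues most of the genes tested were called. For thymus over intestine the calls were 10 of the 10 (9 higher, 1 lower) against 75% of all genes, for thymus over pancreas 7 of the 10 (5 higher, 2 lower) against 70.4% of all genes, and for thymus over liver 8 of the 10 (6 higher, 2 lower) against 79.3% of all genes. For intestine over pancreas they were 9 of the 10 (5 higher, 4 lower) against 64.3% of all genes, for intestine over liver 8 of the 10 (4 higher, 4 lower) against 70.5% of all genes, and for pancreas over liver 6 of the 10 (3 higher, 3 lower) against 65.3% of all genes. With library totals the glycosylase calls were 9 higher and 0 lower for thymus over intestine, 10 higher and 0 lower for thymus over pancreas, 9 higher and 0 lower for thymus over liver, 8 higher and 0 lower for intestine over pancreas, 7 higher and 1 lower for intestine over liver and 0 higher and 7 lower for pancreas over liver. Over all genes the share of calls that were higher moved likewise, to 65.8%, 89.5%, 81%, 91.5%, 82.1% and 29.6% in the same order, in place of 52.9%, 55.3%, 60.2%, 54.3%, 59.6% and 54.1% under TMM. The 20 cell cycle genes also differed between tissues, with sums of 3499 to 4624 CPM in AD and Null thymus, 996 to 1250 in intestine, 362 to 559 in pancreas and 326 to 637 in liver, and their part in the glycosylase levels was not tested.

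The steps after base removal were followed in 28 downstream base excision repair genes. They were listed for their function, but with earlier results of these data known. The list counts beside the shares of all genes are therefore a description and no test of enrichment. In irradiated thymus 11 of 28 were lower in Het than in Null and 0 higher, where 9.38% of all genes tested were lower, and the list median was -0.15 against -0.01 for all genes. They included the abasic site endonuclease Apex1 (-0.98 ± 0.24, edgeR adjusted p 0.00842), the sliding clamp Pcna (-0.65 ± 0.11), the polymerase delta subunit Pold2 (-0.63 ± 0.13) and the clamp loader subunit Rfc4 (-0.56 ± 0.10). The list had 7 genes higher and 0 lower for AD over Het, where 5.69% of all genes were higher, with a median of 0.15 against 0.02 for all genes. It had 12 higher and 0 lower for RP over Het, where 8.53% were higher, with a median of 0.23 against -0.01. Apex1 was higher by 0.78 ± 0.24 in AD and by 0.80 ± 0.24 in RP than in Het (edgeR adjusted p 0.03902 and 0.0271). Between irradiated and basal thymus 5 of 28 were lower in Het, among them Apex1 (-0.97 ± 0.23, edgeR adjusted p 0.00558), and 0 were called in AD or Null. Of all genes 8.09% were lower in Het there. The interaction of Het against Null called 0 of the 28, as did AD over Null, RP over Null and AD over RP in irradiated thymus. Many of these genes serve replication as well. The 20 cell cycle genes summed to 3002 to 4530 CPM in irradiated Het thymus and 4075 to 4534 CPM in Null. Their part in the values of this list was not tested.

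Enzymes that make or prevent altered bases were read from a second list of 18 genes. It was also chosen with earlier results of these data known, so its counts are a description. In irradiated thymus 3 rose in Het over Null: Mgmt, the methyltransferase that repairs alkylated guanine directly (2.79 ± 0.20, edgeR adjusted p 1.17e-08), the cytosine deaminase Apobec1 (1.07 ± 0.08) and the methylcytosine dioxygenase Tet1 (0.91 ± 0.10). A further 3 fell: the DNA methyltransferase Dnmt3b (-0.95 ± 0.19), the dUTPase Dut that keeps uracil out of DNA (-0.73 ± 0.14) and the nucleotide hydrolase Nudt5 (-0.25 ± 0.07). Of all genes tested 9.79% were higher and 9.38% lower. The list median was -0.02, against -0.01 for all genes. Mgmt, Apobec1 and Tet1 were lower in AD than in Het, at -2.52 ± 0.20, -1.17 ± 0.08 and -0.65 ± 0.10, and lower in RP than in Het, at -2.51 ± 0.20, -1.18 ± 0.08 and -0.74 ± 0.10. In RP, Dnmt3b (0.81 ± 0.19), Dut (0.64 ± 0.14) and Nudt1 (0.30 ± 0.10) were higher than in Het. These were 3 of 18 lower for AD over Het, where 8.27% of all genes were lower, and 3 lower and 3 higher for RP over Het, where 10.2% were lower and 8.53% higher. The interaction of Het against Null called 3 of 18, all higher, where 2.37% of all genes were higher, with Mgmt at 2.70 ± 0.37, Apobec1 at 1.09 ± 0.14 and Tet1 at 0.94 ± 0.17. As a check of the genotypes, 10 of 10 p53 targets were higher in irradiated Het than Null thymus, with a median of 2.78, and 0 of 10 were called in AD or RP against Null. The targets thus check Het, and do not tell AD or RP from Null libraries. Trp53 transcript in irradiated thymus was higher than in Null by 0.83 ± 0.07 in AD and 0.76 ± 0.07 in RP (edgeR adjusted p 2.482e-06 and 1.115e-05). It was not called for AD over Null in basal intestine, pancreas or liver.

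The genes whose levels ran most like those of a glycosylase were found by Pearson r of log2 CPM, among genes that averaged 1 log2 CPM or more. Over the 24 thymus libraries Ung was nearest to Naa25 (r 0.974), Sdad1 (0.956) and Usp10 (0.945). Neil1 was nearest to Tube1 (0.955), Maff (0.954) and Rnf157 (0.9495), and Neil3 to Msh5 (0.969), Ncapd3 (0.956) and Eldr (0.9495). Het-631, the highest library for Neil1 and Neil3, was included in these values. Over the 13 group means, Neil3 was nearest to Diaph3 (0.997), Mbd4 to Sp110 (0.999), Mutyh to Rinl (0.997), Smug1 to Mrpl15 (0.993), Tdg to Rbm27 (0.991), Neil1 to Zer1 (0.979), Mpg to Ankrd39 (0.979), Nthl1 to Repin1 (0.974) and Ogg1 to Pradc1 (0.964). Ung had the lowest such value, 0.865 with Grwd1. Between members over the thymus libraries, the pairs with the largest absolute r included Ung and Neil1 (-0.83), Mbd4 and Neil3 (0.78) and Ung and Tdg (0.76). The next were Mutyh and Neil3 (0.752), Mbd4 and Mutyh (0.749) and Ung and Neil3 (-0.73). Pairs with Ung include irradiated Het thymus, where its levels had a part in the choice of members. All these r values describe libraries that share genotype, irradiation and depth, and are given with no test.

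Among the 10 genes, 3 start within 1000 bases of a gene on the opposite strand that points away from them. Nthl1 lies 50 bases from Tsc2, Mutyh 83 bases from Toe1 and Mbd4 99 bases from Ift122. Between irradiated and basal Het thymus, Tsc2 rose by 0.35 ± 0.08 (edgeR adjusted p 0.00254) beside the rise of Nthl1, and Ift122 rose by 0.33 ± 0.11 (edgeR adjusted p 0.0471) while Mbd4 differed by 0.09 ± 0.09 (edgeR adjusted p 0.5804). Toe1 differed by -0.07 ± 0.09 and Mutyh by 0.08 ± 0.10, and neither passed the test. Of all genes tested there, 8.74% were higher and 8.09% lower. For irradiated Het over Null, Tsc2 differed by 0.21 ± 0.08, Ift122 by 0.16 ± 0.11 and Toe1 by -0.17 ± 0.09. None of these passed the test (edgeR adjusted p 0.0748, 0.382 and 0.205), and the interaction of Het against Null called 0 of the 3 neighbours.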

How the data were processed

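The authors' deposited table held raw counts per gene for 49585 genes in 42 libraries. Alignment was by STAR 2.6.0b against GRCm38, and DESeq2 is also named, per the submitters' processing notes. The counter, its strand setting, the annotation release, dose, sex and batch are not given in the sources used here. Symbols and positions were taken from GENCODE M21 (49326 identifiers matched, 259 did not). For 8 basal thymus columns the name lacks the tissue, and each was matched as the only sample left for its animal.

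Members and gene lists were chosen with earlier results of these data known. Low counts were filtered with filterByExpr, libraries scaled with TMM, and genes tested with edgeR 4.0.16 in R 4.3.3 (robust quasi-likelihood F tests), adjusting over all genes tested and calling at an adjusted p under 0.05. Separate fits covered irradiated thymus (22206 genes tested), basal thymus (22173), intestine (20011), pancreas (14604), liver (15755), all thymus (23605) and the basal AD and Null tissues (24431). Log2 levels used a prior count of 2. Scripts were tested on simulated data. The text names all 10 members and, of other lists, at most 4 called genes a direction by size. Other settings tried were RLE scaling, no filter, DESeq2 1.42.0, an Xist covariate, only the groups compared, mouse as a block between tissues, and each library left out; library totals without TMM were added after seeing the data. Animal numbers in the titles show that tissues share mice: over 33 pairs of tissues of a mouse, residuals of 12211 genes had a median correlation of 0.124 (-0.00292 to 0.454). Depth sets the precision of a count, and the members' median raw counts per library ran from 118 (Nthl1) to 1967 (Neil3).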

Additional observations from a re-analysis of the deposited data

Results flagged for a closer look

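Among 40 sets of 4 irradiated thymus libraries, 3 held a library far from the other 3 by Dixon's criterion, and chance gives about 1 in 20. Tdg was at 20.3 CPM in AD-727, with 21.8 to 21.9 CPM in the other AD libraries and a gap of 0.922 of the range. Mbd4 was at 42.9 CPM in AD-630, with 35 to 36.3 CPM in the others and a gap of 0.834. Mutyh was at 12.3 CPM in Het-631, with 8.5 to 9.12 CPM in the others and a gap of 0.837.

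The change between irradiated and basal thymus differed between Het and Null mice for Neil1. For Neil1 the difference was 1.297 on the log2 scale (edgeR adjusted p 0.001202), with 1.36 in Het and 0.07 in Null.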

How the results depend on the processing

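Of the member results 58 were called, 166 were not and 5 (Ung) had no test; under the other settings listed for the fits 8 lost the call, 16 gained one and 0 called ones changed sign. Library totals in place of TMM turned 12 called and 6 uncalled tissue results: 0.00979 (Smug1) in thymus over intestine, 1.76 (Smug1), 1.61 (Ogg1), 1.42 (Nthl1) and 1.89 (Mpg) in thymus over pancreas, 0.63 (Smug1) and 1.26 (Ogg1) in thymus over liver, 0.88 (Ung), 0.74 (Ogg1), 0.27 (Nthl1) and 0.12 (Mpg) in intestine over pancreas, 0.0477 (Ung), 0.62 (Smug1), 0.39 (Ogg1), 0.67 (Neil1) and 0.22 (Mpg) in intestine over liver, and -0.58 (Tdg) and -0.35 (Ogg1) in pancreas over liver. Mouse as a replicate block, for the tissues paired by mouse, moved no count by over 1.5 times: 10, 7, 8, 9, 8, 6 glycosylases were called for thymus over intestine, over pancreas and over liver, intestine over pancreas and over liver, and pancreas over liver, in that order. Between tissues, single libraries ended TMM calls of Ogg1 (thymus over intestine, thymus over pancreas, intestine over liver and pancreas over liver), Smug1 (pancreas over liver) and Mbd4 (intestine over liver). No paired analysis was possible for the other comparisons because their groups share no mouse. For counts of all genes called the cause of the changes was not tested. In irradiated thymus they were 2208 for Het over Null with only the 2 groups, 15, 82 and 10 for AD over Null with no filter, DESeq2 and Xist, 30 for RP over Null with DESeq2, and 14 and 47 for AD over RP with DESeq2 and only the 2 groups. In basal thymus they were 353, 107 and 23 for Het over Null (no filter, DESeq2, only the 2 groups), 403, 168, 38 and 167 for AD over Null (no filter, DESeq2, Xist, only the 2 groups), and 16, 12, 2 and 1 for AD over Het. For AD over Null they were 6, 50 and 101 in intestine (RLE, no filter, DESeq2), 209, 51 and 62 in pancreas and 454, 201 and 95 in liver (no filter, DESeq2, Xist). For irradiated over basal they were 2370 in Het with only the 2 groups, 320 and 361 in AD and 119 and 3 in Null (DESeq2, only the 2 groups), with DESeq2 1217 for the Het and 2 for the AD interaction. With DESeq2 2 of 9 glycosylases were called for RP over Het, where it called 4696 of all genes, and 2 of 9 for the Het interaction, where it called 1217. Glycosylases called between irradiated and basal thymus were 3 (DESeq2) and 2 (only the 2 groups) in AD, and 0 (only the 2 groups) in Null. With single libraries left out, all-gene calls in irradiated thymus were 3340 to 5213 for Het over Null and 2907 to 4775 for RP over Het. Leaving out single libraries gave 1 to 3 glycosylases for Het over Null (Ung left out), 2 to 3 for AD over Het, 1 to 2 for RP over Het, 0 to 1 for irradiated over basal Null and 1 to 2 for the Het interaction, and all-gene counts of 4 to 27 (AD over Null), 4 to 8 (RP over Null), 2189 to 4665 (AD over Het) and 0 to 4 (AD over RP) in irradiated thymus, 8 to 234 (Het over Null), 7 to 29 (AD over Null) and 0 to 8 (AD over Het) in basal thymus, 3 to 8, 4 to 26 and 3 to 87 in intestine, pancreas and liver, 67 to 116 and 0 to 60 for irradiated over basal AD and Null, and 442 to 1329 and 0 to 2 for the Het and AD interactions.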
